A study of Mus musculus with 7 samples.

Results

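Matrix metalloproteinases, ADAM and ADAMTS proteases and their TIMP inhibitors were described across 7 tumour libraries. The members were all genes of the count table whose symbol names an Mmp, Adam, Adamts or Timp gene and that had at least 10 counts summed over the 7 libraries. Of 21878 genes in the table, 79 had such a symbol and 51 reached 10 counts: 17 of 23 Mmp, 14 of 33 Adam, 16 of 19 Adamts and 4 of 4 Timp genes. The level threshold was low, with Adamts16 at 9, Adam21 and Mmp16 at 8 and Adamts18 at 6 counts just outside, and Adam4 at 21, Timp4 at 23 and Adam1b at 24 counts just inside. A further filter on low counts left 42 members to be tested.

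All tumours had grown from cells of the pigmented mouse melanoma line B16F10 grafted into female C57BL/6J mice. The Zelnorm group held 4 libraries, MBZ_9, MBZ_11, MBZ_13 and MBZ_15, from mice dosed orally with Zelnorm at 1.25 mg/kg every 2 days. The NC group held 3 libraries, NC_5, NC_6 and NC_10, from control mice that the labels describe no further. Zelnorm is a brand of tegaserod, which partially activates the 5-HT4 serotonin receptor. The labels do not say what the letters MBZ stand for, whether each library came from its own mouse, or how old the mice were, so the p-values rest on the spread between these libraries, which may be technical in part. The host has its own stroma and immune cells, and a bulk library mixes their transcripts with those of the graft.

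Metalloproteinases are zinc enzymes that are made as inactive precursors. MMPs cut collagens, elastin and other matrix proteins, ADAMs release the outer parts of membrane proteins, and ADAMTS proteases are secreted enzymes that process proteoglycans, procollagens and other matrix proteins. TIMPs bind the active enzymes and block them. In melanoma grafts these genes can be transcribed by the tumour cells, by fibroblasts and by myeloid cells, which bulk counts do not separate.

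Library totals ran from 16903598 to 19666598 counts in Zelnorm tumours and from 18079258 to 19547390 in NC tumours. The detection floor of 3 counts stood for 0.152 to 0.178 CPM (counts scaled to library size with TMM factors) and covers counting error only. Some libraries stood apart in their marker genes. Summed fibroblast markers ran from 1218 to 2428 CPM in Zelnorm tumours and stood at 689, 776 and 1774 CPM in NC_5, NC_6 and NC_10. Summed macrophage markers ran from 413 to 606 CPM in Zelnorm tumours and stood at 240.1, 219 and 446 CPM in the NC libraries in that order. NC_10 thus lay inside the Zelnorm range for both sums. Col1a1, Col1a2 and Col3a1 made up most of the fibroblast sum. Every Zelnorm library lay above every NC library for 3 fibroblast markers (Dcn, Lum and Pdpn) and 2 macrophage markers (Fcgr1 and C1qc). This held for 5.33% of all genes tested. All 8 fibroblast and 9 macrophage markers had a higher mean in Zelnorm tumours, against 50.2% of all genes tested. Of them 2 and 6 were at an unadjusted p under 0.05, against 6.94% of all genes higher at that p. None was called after adjustment by edgeR or limma voom. DESeq2 called 1 marker of each list, Dcn (fibroblasts) and Fcgr1 (macrophages), against 1.66% of all genes tested. Skeletal muscle markers summed to 285 CPM in MBZ_15, 108 CPM in MBZ_11 and 36.4 CPM in NC_5, against 5.35 to 15.8 CPM in the other 4 libraries. The pigment cell markers summed to 28121 to 30352 CPM in Zelnorm tumours and 25975 to 29381 CPM in NC tumours, so transcripts of the labelled cell line were abundant in every library. Testis markers, for the ADAM genes known from sperm, summed to at most 0.169 CPM, with Prm2, Tnp1 and Acrv1 at 0 in every library.

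The members spanned a wide range of levels, and a few genes held most of each family. Levels are compared between genes as CPM per kilobase of annotated exon. Mmp14, the membrane-bound MT1-MMP that cuts collagen and activates pro-MMP-2, stood at 45.0 ± 2.78 CPM per kilobase in Zelnorm tumours and 44.5 ± 2.66 in NC tumours (SD; 4 Zelnorm and 3 NC libraries here and below). It made up 64.2% of the summed Mmp level. Timp2, which both inhibits MMPs and links pro-MMP-2 to MT1-MMP, was higher still per kilobase, at 59.6 ± 1.46 in Zelnorm tumours and 57.6 ± 1.63 in NC tumours. It made up 59.4% of the Timp sum. Not divided by exon length, Mmp14 was above Timp2, with 268 against 232 CPM in Zelnorm tumours and 265 against 224 CPM in NC tumours. Adam9 held 34.2% of the Adam sum and Adamts1 52.2% of the Adamts sum. The 4 most abundant genes of a family together held 85.7% (Mmp), 83.3% (Adam) and 83.3% (Adamts).

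**Figure D1:**
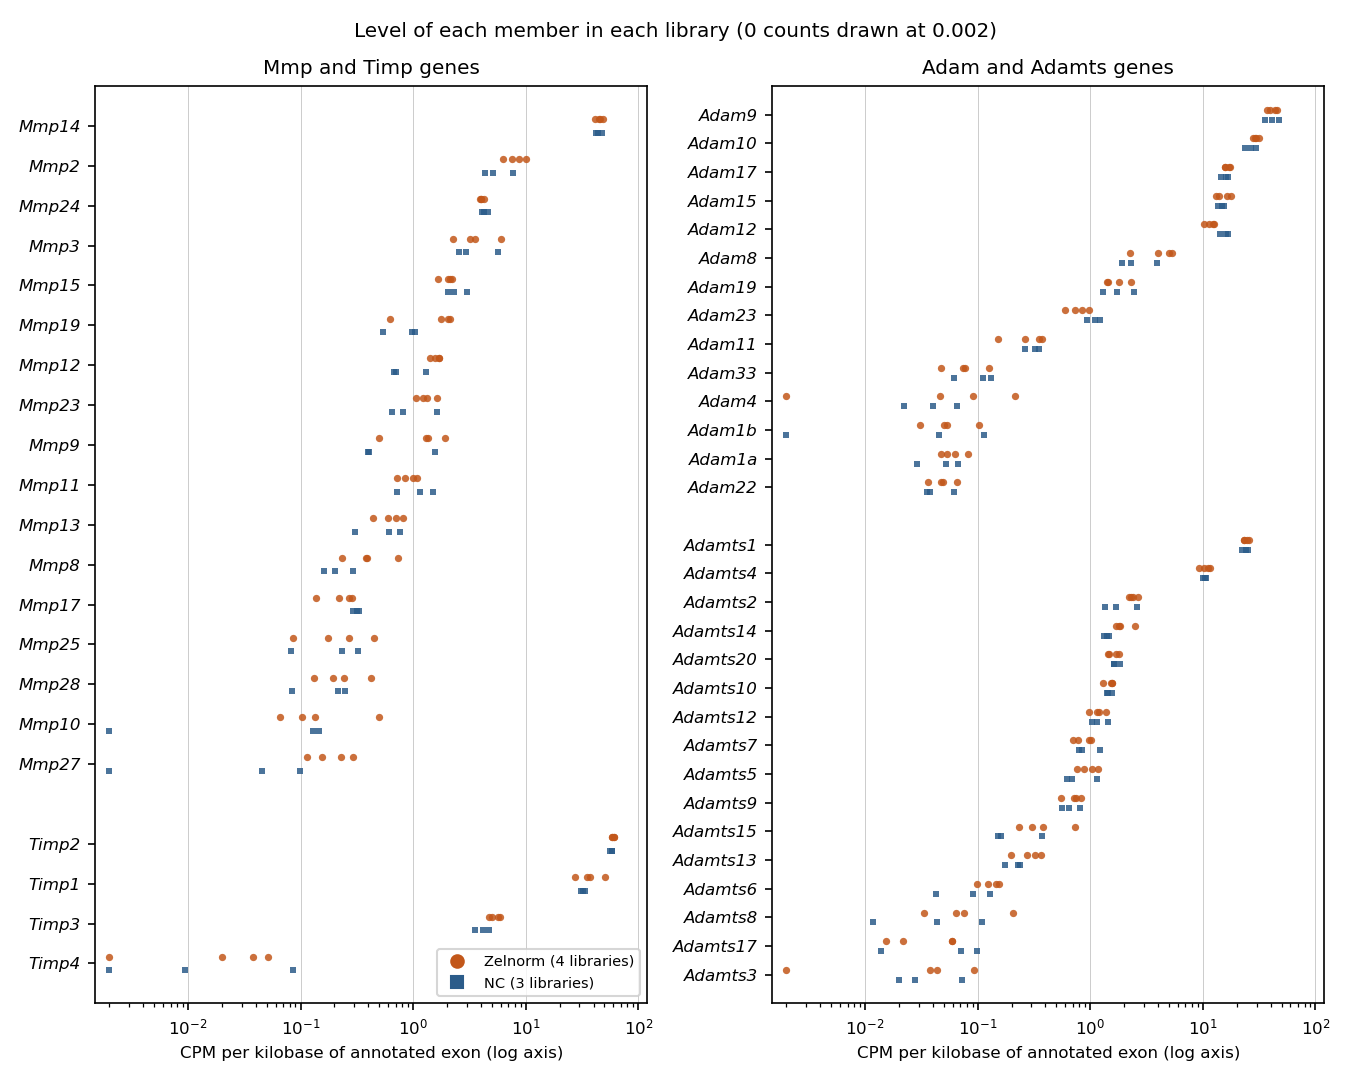
Level of each of the 51 members in each library, as CPM per kilobase of annotated exon on a log axis; circles are the 4 Zelnorm libraries, squares the 3 NC libraries, and 0 counts are drawn at 0.002. Timp2, Mmp14, Adam9 and Timp1 lead, and the groups overlap for most genes.

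The family totals overlapped between the groups. The summed Mmp level was 71.95 ± 5.48 CPM per kilobase in Zelnorm tumours, with a range of 64.4 to 77.04, and 67.09 ± 8.55 in NC tumours, with a range of 61.87 to 76.96. The Timp sum ran from 93.34 to 113.3 CPM per kilobase in Zelnorm tumours and from 91.58 to 96.69 in NC tumours. The Adam sum averaged 121.7 ± 3.37 CPM per kilobase in Zelnorm tumours and 119.8 ± 9.59 in NC tumours, and the Adamts sum 46.72 ± 2.99 in Zelnorm tumours and 45.09 ± 3.38 in NC tumours. The ratio of the Mmp sum to the Timp sum, at transcript level, lay between 0.637 and 0.769 in Zelnorm tumours and between 0.659 and 0.796 in NC tumours. In every one of these sums the range of one group lay within or across the range of the other.

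No member passed the test between Zelnorm and NC tumours. Of the 42 tested members, 0 had an adjusted p under 0.05 by edgeR's quasi-likelihood test with Benjamini-Hochberg adjustment over all genes tested, where 4 of 12997 genes (0.0308%) were called. The smallest adjusted p among members was 0.118 for Adam12 (edgeR). At an unadjusted p under 0.05, 5 members (11.9%) were higher, against 902 genes (6.94%) of all tested, and 2 members (4.76%) were lower, against 439 genes (3.38%). DESeq2 on the same genes called 2 members, Adam12 and Mmp12, against 216 genes (1.66%) in all, and limma voom called 0 members.

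Of the 42 tested members, 30 (71.4%) had a log2 fold change above 0, against 50.2% of all genes tested. Their median log2 fold change was 0.068, against 0.000363 over all genes tested, and it was 0.00623 without NC_5 and 0.177 without NC_10. It was -0.0449 without NC_5, MBZ_11 and MBZ_15, the libraries with the most muscle transcripts. Every Zelnorm library lay above every NC library for 2 members, Mmp12 and Adamts14 (4.76%, against 693 genes or 5.33% of all). Every Zelnorm library lay below every NC library for 2 members, Adam12 and Mmp17 (4.76%, against 555 genes or 4.27% of all). These shares of groups that do not overlap were close to those of all genes. By family, 11 of 15 Mmp, 6 of 11 Adam, 10 of 13 Adamts and 3 of 3 Timp genes had a log2 fold change above 0, with medians of 0.20, 0.02, 0.07 and 0.22.

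**Figure D2:**
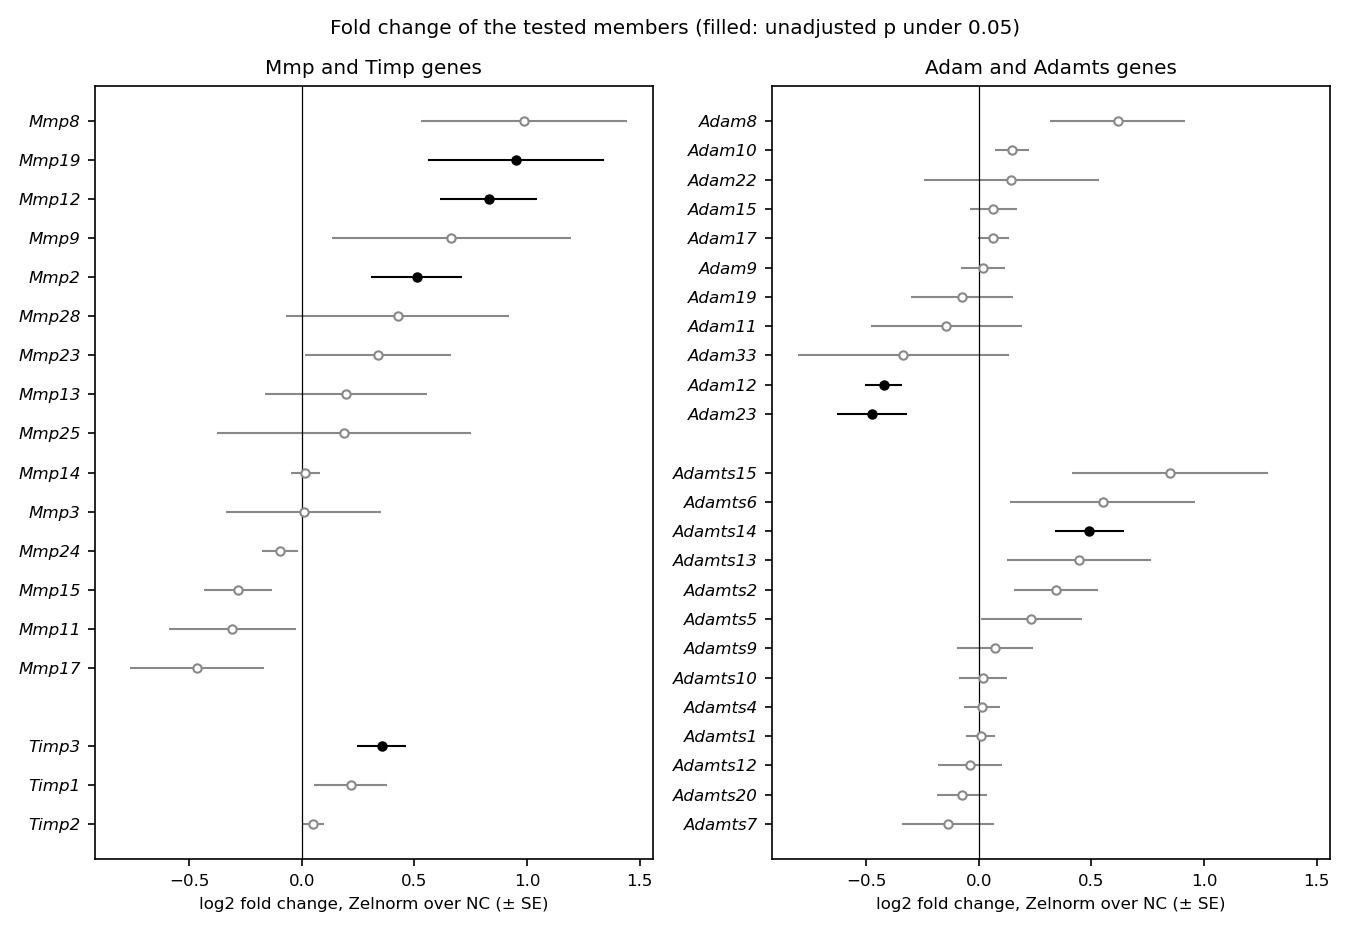
Log2 fold change of Zelnorm over NC tumours with its SE for the 42 tested members, sorted within each family; filled points have an unadjusted p under 0.05 (edgeR). Mmp8, Mmp19 and Adamts15 lie farthest to the right and Adam23, Mmp17 and Adam12 farthest to the left, and no member passed the adjusted threshold.

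**Figure D3:**
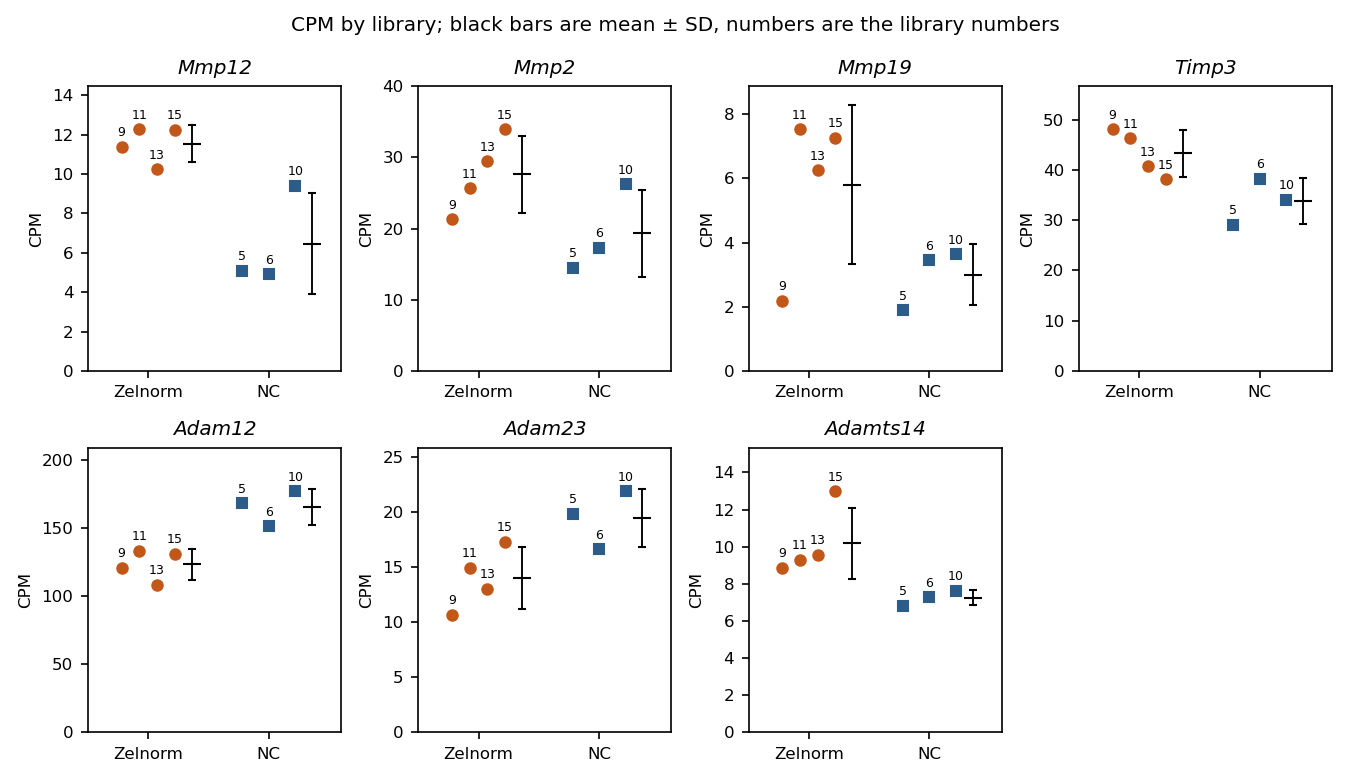
CPM in each library for the 7 members at an unadjusted p under 0.05; circles are Zelnorm libraries, squares NC libraries, numbers the library numbers and black bars the mean ± SD. The groups do not overlap for Mmp12, Adam12 and Adamts14, and NC_10 is the highest NC library for all but Timp3.

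A compact cluster of metalloproteinase genes lies on mouse chromosome 9. The promoters of its members are shown because most of them carry a pair of motifs. No other member with a promoter window had both motifs in it. The 6 members in the cluster are the collagenases Mmp13 and Mmp8, the macrophage elastase Mmp12, the stromelysins Mmp3 and Mmp10, and Mmp27. The stretches run 5′ to 3′ from 110 bases before to 10 bases after the annotated transcript start (RefSeq, GRCm38.p6). Capitals mark the AP-1 motif TGANTCA and the TATA box motif TATAAA, searched on both strands.
Mmp13 (chr9:7272404-7272523, + strand): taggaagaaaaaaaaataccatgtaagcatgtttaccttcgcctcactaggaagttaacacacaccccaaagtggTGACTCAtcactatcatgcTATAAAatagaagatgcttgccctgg
Mmp12 at its second start (chr9:7347264-7347383, + strand): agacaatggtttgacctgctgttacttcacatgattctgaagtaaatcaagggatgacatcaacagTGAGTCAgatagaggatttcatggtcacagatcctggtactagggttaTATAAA
Mmp3 (chr9:7445712-7445831, + strand): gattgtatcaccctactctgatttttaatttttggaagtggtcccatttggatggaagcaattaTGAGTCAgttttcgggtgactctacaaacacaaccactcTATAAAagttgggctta
Mmp10 (chr9:7502232-7502351, + strand): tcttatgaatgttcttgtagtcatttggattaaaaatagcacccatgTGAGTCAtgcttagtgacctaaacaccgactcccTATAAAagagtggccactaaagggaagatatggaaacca
Mmp8 (chr9:7558319-7558438, + strand): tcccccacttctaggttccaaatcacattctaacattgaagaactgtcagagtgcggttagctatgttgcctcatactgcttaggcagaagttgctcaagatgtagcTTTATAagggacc
Mmp27 (chr9:7571286-7571405, + strand): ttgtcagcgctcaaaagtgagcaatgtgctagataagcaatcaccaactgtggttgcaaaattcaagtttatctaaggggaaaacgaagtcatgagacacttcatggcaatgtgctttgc

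In Mmp13, Mmp3 and Mmp10 the AP-1 motif lay 35, 46 and 63 bases before the start, with the TATA box motif 16, 7 and 29 bases before it. Mmp12 has a pair of annotated starts. The window of its upstream one held neither motif, and that of the second start held the AP-1 motif 44 bases before it and TATAAA 4 bases after it. In Mmp8 only the TATA motif was matched, on the opposite strand (TTTATA on the strand shown), and in the Mmp27 window neither was matched. Over the whole cluster, which has 10 genes with 12 windows of 250 bases before to 50 after a start, 8 windows (66.7%) held the AP-1 motif and 9 (75.0%) the TATA motif. Among all 32851 windows in the RefSeq table, 7.81% held the AP-1 motif, 13.6% the TATA motif and 1.54% both, whereas both stood together in 8 of the 12 cluster windows. The other 29 members with a window had 32 windows, of which 2 (6.25%) held the AP-1 motif and 1 (3.12%, Adamts1) the TATA motif. The interferon-gamma-activated element TTCNNNGAA was in 2 of the 39 member windows (5.13%), against 8.3% of all windows. Both were overlapping windows of Mmp23 that hold the same site, so it was 1 element in 1 gene. A promoter window was found for 35 of the 51 members.

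Genes of this cluster were transcribed at low levels in the grafts, and their values followed no common order over the libraries. Mmp12 (GRCm38.p6 chromosome 9, 7344397 to 7360461), which cuts elastin and is known from macrophages, had 11.4, 12.3, 10.2 and 12.2 CPM in MBZ_9, MBZ_11, MBZ_13 and MBZ_15, against 5.09, 4.90 and 9.41 CPM in NC_5, NC_6 and NC_10. The groups did not overlap, and NC_10 lay nearest to the Zelnorm libraries. The means were 11.5 ± 0.951 CPM in Zelnorm tumours and 6.47 ± 2.55 CPM in NC tumours, a log2 fold change of 0.83 ± 0.22 (SE) with an edgeR unadjusted p of 0.00298 and an adjusted p of 0.208. The DESeq2 adjusted p was 0.0177. Without NC_10 the log2 fold change was 1.21 and the gene passed the edgeR test (adjusted p = 0.0152), and without NC_5, MBZ_11 and MBZ_15 it was 0.58. The summed macrophage markers also ran higher in Zelnorm tumours and stood highest among NC libraries in NC_10, and their part in the Mmp12 difference was not tested. Fewer cells of a type and less RNA per cell cannot be told apart in these bulk counts.

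Its neighbour Mmp3, stromelysin-1, which cuts proteoglycans and activates other MMPs, showed no such order. It had 5.81, 10.8, 6.42 and 4.06 CPM in MBZ_9, MBZ_11, MBZ_13 and MBZ_15, against 4.60, 5.29 and 10.2 CPM in NC_5, NC_6 and NC_10. A single library was high in each group, MBZ_11 and NC_10, and the log2 fold change was 0.01 ± 0.35 (edgeR adjusted p = 0.997), which turned negative in limma voom (-0.03) and without NC_5, MBZ_11 and MBZ_15 (-0.35). Mmp13, an interstitial collagenase, averaged 1.72 ± 0.428 CPM in Zelnorm tumours and 1.497 ± 0.633 CPM in NC tumours (log2 fold change 0.20 ± 0.36, edgeR adjusted p = 0.898). Its value changed sign without NC_5 and without NC_5, MBZ_11 and MBZ_15.

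Mmp8, the collagenase known from neutrophils, had 0.921, 0.948, 0.563 and 1.78 CPM in the Zelnorm libraries, against 0.488, 0.390 and 0.708 CPM in the NC libraries. The groups overlapped, and the log2 fold change was 0.99 ± 0.46, with an unadjusted p of 0.0558 and an edgeR adjusted p of 0.498. It was 0.60 without MBZ_15, below those of Mmp19 (0.82) and Mmp12 (0.79) in the same fit. The summed neutrophil markers were highest in MBZ_15, at 8.94 CPM, against 7.38 CPM in NC_10 and at most 4.55 CPM in the other libraries. Only 2 of the 8 neutrophil markers, Csf3r and Retnlg, passed the filter on low counts. Csf3r held 4.77 of the 8.94 CPM, while Retnlg was highest in NC_10, at 2.23 CPM, against 0.559 CPM in MBZ_15. The part of neutrophils in the Mmp8 value was not tested. Mmp10 and Mmp27 did not pass the filter on low counts. Mmp10, a second stromelysin, had 4, 3, 2 and 17 counts in the Zelnorm libraries and 0, 4 and 5 in the NC libraries. Mmp27 had 6, 11, 9 and 5 counts in the Zelnorm libraries and 4, 0 and 2 in the NC libraries, so the groups did not overlap, at levels near the floor. In the fit with no filter beyond 10 counts, its log2 fold change was 1.96 ± 0.78 (unadjusted p = 0.0297, edgeR adjusted p = 0.448) and that of Mmp10 was 1.11 ± 0.93 (edgeR adjusted p = 0.747). The 4 other cluster genes, Mmp1a, Mmp1b, Mmp7 and Mmp20, were at 0 counts in all 7 libraries.

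The gelatinases cut denatured collagen and basement membrane collagen. Mmp2 (chromosome 8, 92827290 to 92853421), the gelatinase known from stromal cells, had 21.3, 25.6, 29.5 and 33.9 CPM in MBZ_9, MBZ_11, MBZ_13 and MBZ_15, against 14.5, 17.3 and 26.2 CPM in NC_5, NC_6 and NC_10. Only NC_10 reached into the Zelnorm range. This gave a log2 fold change of 0.51 ± 0.20 (unadjusted p = 0.0291, edgeR adjusted p = 0.421). It was 0.80 without NC_10, 0.34 without NC_5, and 0.21 without NC_5, MBZ_11 and MBZ_15. The summed fibroblast markers were likewise lowest in NC_5 and NC_6, and highest in MBZ_15, and their part in the Mmp2 difference was not tested.

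Mmp9, the second gelatinase, known from neutrophils and macrophages, had 4.78, 4.62, 1.74 and 6.76 CPM in the Zelnorm libraries, against 1.41, 1.45 and 5.56 CPM in the NC libraries. MBZ_13 lay near NC_5 and NC_6, and NC_10 lay near MBZ_9 and MBZ_11. With all libraries the log2 fold change was 0.66 ± 0.53 (edgeR adjusted p = 0.729), and 1.65 without NC_10. It was -0.12 without NC_5, MBZ_11 and MBZ_15.

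Mmp19 (chromosome 10, 128790910 to 128800827), a secreted MMP that cuts basement membrane proteins, had 2.19, 7.52, 6.25 and 7.26 CPM in the Zelnorm libraries, against 1.90, 3.45 and 3.64 CPM in the NC libraries. In MBZ_9 it lay below NC_6 and NC_10, and the other 3 Zelnorm libraries lay above all NC libraries. Its log2 fold change was 0.95 ± 0.39 (unadjusted p = 0.0340, edgeR adjusted p = 0.439). It ranged from 0.71 to 1.22 in the 7 fits that each left out 1 library and was 0.24 without NC_5, MBZ_11 and MBZ_15.

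The membrane-type MMPs, which stay on the cell surface, had log2 fold changes in both directions. Mmp14 had 248, 266, 272 and 288 CPM in the Zelnorm libraries, against 262, 252 and 283 CPM in the NC libraries. The groups overlapped almost fully, and the log2 fold change was 0.02 ± 0.06 (edgeR adjusted p = 0.956). Mmp24 (MT5-MMP), known from the nervous system, averaged 18.9 ± 0.680 CPM in Zelnorm tumours and 20.3 ± 1.33 CPM in NC tumours (log2 fold change -0.10 ± 0.08, edgeR adjusted p = 0.744). Mmp17 (MT4-MMP), which is held to the membrane by a lipid anchor, had 1.44, 1.90, 1.80 and 0.914 CPM in the Zelnorm libraries, against 2.11, 1.95 and 2.17 CPM in the NC libraries. All Zelnorm libraries lay below all NC libraries, with MBZ_11 and NC_6 close together. Its log2 fold change was -0.46 ± 0.30 (unadjusted p = 0.150, edgeR adjusted p = 0.644), and -0.29 without MBZ_15. Mmp15 and Mmp25, which are also of the membrane type, had log2 fold changes of -0.28 and 0.19. Of the other Mmp members, Mmp11 had a value of -0.31, and Mmp23 and Mmp28 had values of 0.34 and 0.43. The edgeR adjusted p-values of Mmp15, Mmp25, Mmp11, Mmp23 and Mmp28 ran from 0.560 to 0.941.

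All tested TIMP genes had a higher mean in Zelnorm tumours, by unequal amounts. Timp3 (chromosome 10, 86300412 to 86349505), the inhibitor that binds to the extracellular matrix and also blocks ADAM17 and several ADAMTS proteases, had 48.0, 46.3, 40.7 and 38.1 CPM in MBZ_9, MBZ_11, MBZ_13 and MBZ_15, against 29.1, 38.3 and 34.1 CPM in NC_5, NC_6 and NC_10. Only MBZ_15 and NC_6 met, at almost equal values. The means were 43.3 ± 4.66 CPM in Zelnorm tumours and 33.8 ± 4.59 CPM in NC tumours, a log2 fold change of 0.36 ± 0.11 (unadjusted p = 0.00782, edgeR adjusted p = 0.295). It lay between 0.26 and 0.44 in the fits that each left out 1 library, and was 0.29 without NC_5, MBZ_11 and MBZ_15. The summed fibroblast markers were highest in MBZ_15 and, among NC libraries, in NC_10, and their part in the Timp3 difference was not tested.

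Timp1, an inducible inhibitor of most MMPs, had 32.9, 31.3, 24.3 and 44.5 CPM in the Zelnorm libraries, against 28.5, 27.6 and 29.8 CPM in the NC libraries. The Zelnorm libraries lay on both sides of the NC range, and the log2 fold change was 0.22 ± 0.16 (edgeR adjusted p = 0.704). It was 0.04 without MBZ_15, 0.34 without MBZ_13, and -0.01 without NC_5, MBZ_11 and MBZ_15. Timp2 had 227, 237, 237 and 228 CPM in the Zelnorm libraries, against 227, 217 and 229 CPM in the NC libraries (log2 fold change 0.05 ± 0.05, edgeR adjusted p = 0.800). Timp4, known from heart and fat, did not pass the filter, with 0, 2, 4 and 6 counts in the Zelnorm libraries and 0, 1 and 10 in the NC libraries.

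Among the ADAM genes, both members at an unadjusted p under 0.05 were lower in Zelnorm tumours. Adam12 (GRCm38.p6 chromosome 7, 133883199 to 134225097) encodes meltrin alpha, a protease of growing mesenchyme and muscle that is also made by many tumours. It had 121, 133, 109 and 131 CPM in MBZ_9, MBZ_11, MBZ_13 and MBZ_15, against 168, 151 and 177 CPM in NC_5, NC_6 and NC_10. The highest Zelnorm library, MBZ_11, lay below the lowest NC library, NC_6.

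The Adam12 means were 124 ± 11.4 CPM in Zelnorm tumours and 166 ± 13.2 CPM in NC tumours. The log2 fold change was -0.42 ± 0.08 (unadjusted p = 0.000353, edgeR adjusted p = 0.118), and the DESeq2 adjusted p was 0.000337. The fits that each left out 1 library gave -0.49 to -0.37, and the value was -0.52 without NC_5, MBZ_11 and MBZ_15. Muscle markers were highest in MBZ_15 and MBZ_11, which were also the Zelnorm libraries with the most Adam12. Across the groups the order differed. Muscle markers summed to 36.4, 6.24 and 5.82 CPM in NC_5, NC_6 and NC_10, where Adam12 was above every Zelnorm library. The part of muscle in the Adam12 values was not tested. The summed fibroblast markers were higher in Zelnorm tumours in mean, and the part of fibroblasts in the Adam12 difference was not tested.

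Adam23 (GRCm38.p6 chromosome 1, 63445717 to 63596111) is a family member without protease activity that binds integrins and is known from neurons. It had 10.7, 14.98, 13.1 and 17.3 CPM in the Zelnorm libraries, against 19.9, 16.7 and 21.9 CPM in the NC libraries. The groups overlapped only through MBZ_15 and NC_6. The log2 fold change was -0.47 ± 0.16 (unadjusted p = 0.0120, edgeR adjusted p = 0.319), from -0.60 to -0.37 with each library left out in turn and -0.71 without NC_5, MBZ_11 and MBZ_15.

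The main sheddases lay close to equal. Adam10, which cuts Notch receptors and cadherins, had 145, 142, 154 and 138 CPM in the Zelnorm libraries, against 116, 144 and 131 CPM in the NC libraries. NC_5 was the lowest library, and the log2 fold change was 0.15 ± 0.08 (edgeR adjusted p = 0.540). Adam17, which releases TNF and EGF receptor ligands, had 113, 111, 122 and 124 CPM in the Zelnorm libraries, against 104, 119.8 and 115 CPM in the NC libraries. Its log2 fold change was 0.06 ± 0.07 (edgeR adjusted p = 0.810). Adam9, a widely made membrane protease and the most abundant ADAM per kilobase, averaged 171 ± 15.7 CPM in Zelnorm tumours and 169 ± 23.9 CPM in NC tumours (log2 fold change 0.02 ± 0.10, edgeR adjusted p = 0.965). Adam15, a membrane protease that also binds integrins, averaged 93.8 ± 13.4 CPM in Zelnorm tumours and 89.6 ± 6.28 CPM in NC tumours (log2 fold change 0.06 ± 0.10, edgeR adjusted p = 0.878).

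Adam8, known from myeloid cells, followed a pattern like that of Mmp9. It had 18.5, 23.0, 10.4 and 24.8 CPM in the Zelnorm libraries, against 10.6, 8.86 and 18.1 CPM in the NC libraries. MBZ_13 lay with NC_5 and NC_6, NC_10 lay with MBZ_9, and the log2 fold change was 0.62 ± 0.30 (unadjusted p = 0.0657, edgeR adjusted p = 0.521). Adam19, Adam11, Adam22 and Adam33 had overlapping groups and edgeR adjusted p-values from 0.860 to 0.941. Of the 33 Adam genes in the table, 15 were at 0 counts in every library, among them Adam2, Adam7, Adam18 and Adam24, which are known from sperm and the male reproductive tract. Adam1a, Adam1b and Adam4 reached 54, 24 and 21 counts summed over all libraries and did not pass the filter.

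The ADAMTS family held 1 gene at an unadjusted p under 0.05. Adamts14 (GRCm38.p6 chromosome 10, 61197112 to 61273419), a procollagen N-proteinase that trims fibrillar procollagens, had 8.86, 9.30, 9.57 and 13.0 CPM in MBZ_9, MBZ_11, MBZ_13 and MBZ_15, against 6.82, 7.30 and 7.64 CPM in NC_5, NC_6 and NC_10. No NC library reached the lowest Zelnorm library, and MBZ_15 stood well above the rest. The means were 10.2 ± 1.90 CPM in Zelnorm tumours and 7.25 ± 0.407 CPM in NC tumours. The log2 fold change was 0.49 ± 0.16 (unadjusted p = 0.00961, edgeR adjusted p = 0.300). It was 0.34 without MBZ_15 and 0.30 without NC_5, MBZ_11 and MBZ_15.

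The value of Adamts2, a second procollagen N-proteinase, moved with the controls used. It had 20.7, 21.6, 22.4 and 24.5 CPM in the Zelnorm libraries, against 12.5, 15.8 and 24.4 CPM in the NC libraries. NC_10 lay at the top of the Zelnorm range while NC_5 and NC_6 lay below it. The log2 fold change was 0.34 ± 0.19 (edgeR adjusted p = 0.571) with all libraries, and 0.66 without NC_10, where the gene passed the test (edgeR adjusted p = 0.0358). It was 0.15 without NC_5, and 0.09 without NC_5, MBZ_11 and MBZ_15. The third enzyme of this kind, Adamts3, had 29 counts over the 7 libraries and did not pass the filter, nor did Adamts17 and Adamts8, with 49 and 45 counts. With no filter beyond 10 counts, Mmp27 was at an unadjusted p under 0.05 and the other 8 members left out by the filter had unadjusted p-values from 0.259 to 0.885 (edgeR).

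The proteoglycan-cutting members were close to equal at the top of the family. Adamts1, a versican-cutting protease that also restrains vessel growth, averaged 128 ± 6.42 CPM in Zelnorm tumours and 127 ± 8.48 CPM in NC tumours (log2 fold change 0.01 ± 0.06, edgeR adjusted p = 0.977). Adamts4, an aggrecanase, averaged 50.5 ± 4.86 CPM in Zelnorm tumours and 49.97 ± 1.56 CPM in NC tumours (log2 fold change 0.02 ± 0.08, edgeR adjusted p = 0.963). Adamts15, another versican-cutting protease, had 2.42, 3.91, 3.15 and 7.57 CPM in the Zelnorm libraries, against 1.57, 1.67 and 3.84 CPM in the NC libraries. MBZ_15 and NC_10 stood highest in their groups, and the log2 fold change was 0.85 ± 0.44 (unadjusted p = 0.0789, edgeR adjusted p = 0.546). Adamts5, the other main aggrecanase, averaged 10.4 ± 1.95 CPM in Zelnorm tumours and 8.84 ± 3.14 CPM in NC tumours (log2 fold change 0.23 ± 0.22, edgeR adjusted p = 0.789). The remaining 7 tested members, Adamts6, Adamts7, Adamts9, Adamts10, Adamts12, Adamts13 and Adamts20, had log2 fold changes between -0.14 and 0.55 with edgeR adjusted p-values from 0.689 to 0.969.

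For many members the value depended on which control libraries were used. NC_10 was the highest NC library for 32 of the 42 tested members (76.2%), against 32.4% of all genes tested, and NC_5 was the lowest for 25 (59.5%), against 35.7% of all genes. By family, NC_10 was highest for 13 of 15 Mmp, 11 of 13 Adamts, 6 of 11 Adam and 2 of 3 Timp genes. Among Zelnorm libraries MBZ_15 was the highest and MBZ_9 the lowest for 18 members each (42.9%), against 23.8% and 27.3% of all genes. NC_10 was also the NC library with the highest summed fibroblast, macrophage, endothelial, pericyte and neutrophil markers. Without NC_10, 12 members were higher at an unadjusted p under 0.05 in place of 5, and the share of all genes for that count is not given here. In that fit edgeR called Adamts2 and Mmp12, and 161 of 13111 genes in all. The share with every Zelnorm library above every NC library rose from 4.76% to 26.2% of members. It also rose over all genes, from 5.33% to 11.5%.

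**Figure D4:**
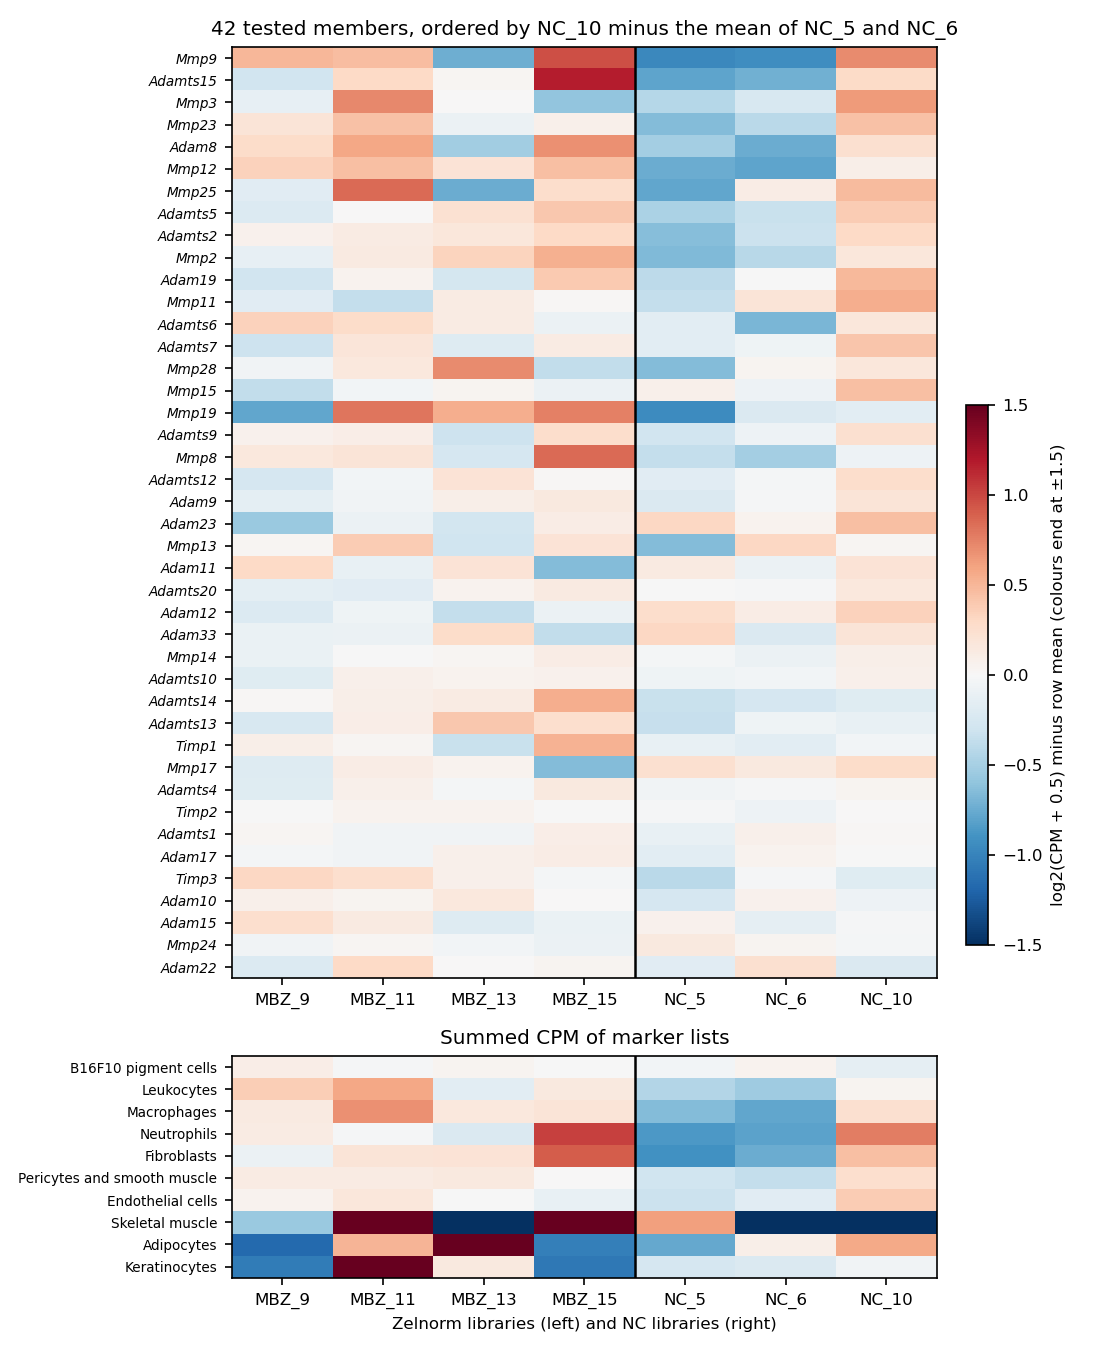
Log2(CPM + 0.5) minus the mean of each row for the 42 tested members (upper block) and for the summed CPM of marker lists (lower block), Zelnorm libraries left of the black line and NC libraries right of it; colours end at ±1.5. Members are ordered by NC_10 minus the mean of NC_5 and NC_6, so this order itself puts genes such as Mmp9, Adamts15 and Mmp3 at the top. The neutrophil, fibroblast and macrophage marker sums, which were not sorted, are higher in NC_10 than in NC_5 and NC_6.

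Genes that act with these proteases gave 0 calls in any of 7 lists by edgeR. DESeq2 called 2 of 15 tested shed substrates, Tnfrsf1b among them, and Papln of 8 tested ADAMTS-like and other related genes. Over all genes tested, DESeq2 called 1.66%. In the plasminogen system, which activates several pro-MMPs, 7 of 10 genes were tested, all with a higher mean in Zelnorm tumours. Of them 2 were at an unadjusted p under 0.05. Among all genes tested, 50.2% had a log2 fold change above 0 and 6.94% were higher at that p. Plat, tissue plasminogen activator, averaged 15.3 ± 2.71 CPM in Zelnorm tumours and 10.4 ± 2.60 CPM in NC tumours (log2 fold change 0.56 ± 0.19, edgeR adjusted p = 0.329). Serpinb2, an inhibitor of plasminogen activators, averaged 4.99 ± 6.07 CPM in Zelnorm tumours and 1.02 ± 0.738 CPM in NC tumours, with an SD above the mean in Zelnorm tumours (log2 fold change 2.29 ± 0.95, edgeR adjusted p = 0.443). Plg, plasminogen itself, was at 0 counts.

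Of the 4 convertases that cut the propeptides of membrane-type MMPs and ADAMs, none was at an unadjusted p under 0.05, and Furin, the best known, averaged 86.2 ± 7.85 CPM in Zelnorm tumours and 78.7 ± 2.14 CPM in NC tumours. Of 6 tested genes among 12 other inhibitors and inducers, none was at an unadjusted p under 0.05 either. These included Reck, a membrane-bound MMP inhibitor, at 17.7 ± 1.61 CPM in Zelnorm tumours and 18.0 ± 2.43 CPM in NC tumours, and Bsg, the MMP inducer basigin, at 1674 ± 183 CPM in Zelnorm tumours and 1751 ± 224 CPM in NC tumours.

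The partners of ADAM10 and ADAM17 went in both directions. Of 9 tested, 1 was higher and 3 were lower at an unadjusted p under 0.05, against 6.94% and 3.38% of all genes tested. The ADAM10-binding tetraspanin Tspan15 averaged 25.4 ± 2.12 CPM in Zelnorm tumours and 31.4 ± 3.26 CPM in NC tumours (log2 fold change -0.31 ± 0.09, edgeR adjusted p = 0.296). Tspan5, another of these tetraspanins, averaged 30.5 ± 1.46 CPM in Zelnorm tumours and 26.5 ± 1.59 CPM in NC tumours (log2 fold change 0.21 ± 0.07, edgeR adjusted p = 0.364). Tspan33 and Rhbdf1, which encodes iRhom1, an ADAM17 escort, had log2 fold changes of -0.60 ± 0.25 and -0.16 ± 0.07.

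Proteins that these enzymes cut had mostly higher transcript means in Zelnorm tumours. Of 15 tested shed substrates, 14 had a log2 fold change above 0, against 50.2% of all genes tested, with a list median of 0.46. Of them 5 were at an unadjusted p under 0.05, all higher, against 6.94% of all genes higher at that p. Tnfrsf1b, a TNF receptor of leukocytes, averaged 21.9 ± 4.07 CPM in Zelnorm tumours and 13.2 ± 3.70 CPM in NC tumours (log2 fold change 0.72 ± 0.19, edgeR adjusted p = 0.219). Il6ra, the interleukin-6 receptor, averaged 3.60 ± 0.816 CPM in Zelnorm tumours and 2.10 ± 0.608 CPM in NC tumours (log2 fold change 0.77 ± 0.28, edgeR adjusted p = 0.364). Several of these substrates are leukocyte genes. Of 6 leukocyte markers, 5 were higher at an unadjusted p under 0.05, against 6.94% of all genes. DESeq2 called 3 of the leukocyte markers, Ptprc, Coro1a and Cd53, against 1.66% of all genes, and edgeR called 0. The leukocyte markers summed to 199 to 332 CPM in Zelnorm tumours and 154 to 229 CPM in NC tumours. Their part in these differences was not tested.

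Among 8 tested substrates of ADAMTS proteases, all had a log2 fold change above 0, against 50.2% of all genes tested. At an unadjusted p under 0.05, 3 were higher, against 6.94% of all genes. These were Thbs1, the matrix protein thrombospondin-1, with 0.63 ± 0.18, Fbn1, the microfibril protein fibrillin-1, with 0.74 ± 0.23, and Vcan, the proteoglycan versican, with 0.92 ± 0.31 (edgeR adjusted p-values from 0.248 to 0.335). The list shares Col1a1, Col1a2 and Col3a1 with the fibroblast markers. Of 8 tested ADAMTS-like and other related genes, Papln, the secreted protein papilin, was lower, at 21.1 ± 2.89 CPM in Zelnorm tumours and 29.6 ± 3.95 CPM in NC tumours (log2 fold change -0.49 ± 0.12, edgeR adjusted p = 0.201). Adamtsl1, an ADAMTS-like protein without protease activity, had a log2 fold change of 0.90 ± 0.39 (edgeR adjusted p = 0.458). The values of NC_10 for the summed substrates of ADAMTS proteases, at 1918 CPM, lay inside the Zelnorm range of 1362 to 2638 CPM, while NC_5 and NC_6 stood at 770 and 866 CPM.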

How the data were processed

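RNA was sequenced in 7 tumour libraries. Per the labels' protocols, TRIzol served for RNA extraction and the TruSeq Stranded mRNA kit for the libraries. The authors deposited raw read counts per gene, with a column for each library. Trimmomatic, HISAT2, Cufflinks, HTSeq and DESeq, and the builds GRCh38 and GRCm38, are named per the submitters' processing notes. Their roles and versions, the annotation and the strand setting of the counting are not stated in the sources used here, so reads of overlapping genes and of near-identical Adam copies are uncertain. Columns name the group of a library but not its replicate number, and were assigned to groups only.

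Counts were tested by quasi-likelihood in edgeR 4.0.16 (R 4.3.3) after filterByExpr (12997 genes) and TMM scaling (factors 0.986 to 1.01), with Benjamini-Hochberg adjustment over all genes tested at 0.05. The biological coefficient of variation common to all genes was 0.111. The test was checked on simulated counts. CPM was divided by the GENCODE vM21 exon length for levels between genes. Coordinates and promoters are from RefSeq (GRCm38.p6). No pair of libraries agreed within sampling noise (chi-square per degree of freedom of at least 6.53). The alternatives were DESeq2 1.42.0, limma voom (limma 3.58.1), RLE and upper-quartile scaling, other filters and thresholds, and leaving out libraries.

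The members and all gene lists were chosen with earlier results of these data known. Genes named were those at an unadjusted p under 0.05, all Timp genes, the 4 most abundant genes per protease family, the main gelatinases, collagenases, stromelysins and sheddases, members of at least 1 CPM whose groups did not overlap, and up to 4 genes of each related list. Other members were named after their values were seen. The values of 1 gene of a related list are not reported here.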

Additional observations from a re-analysis of the deposited data

Results flagged for a closer look

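In a few sets of 4 Zelnorm libraries, 1 library lay far from the other 3. Of 56 such sets of values examined (42 of them members), 4 stood out, and chance gives about 1 in 20. Adamts10 was low in MBZ_9, at 10.8 CPM, against 12.7 to 13.0 CPM in the other Zelnorm libraries. Adamts14 was high in MBZ_15, at 13.0 CPM, against 8.86 to 9.57 CPM in the other Zelnorm libraries. That library also had the highest summed muscle and fibroblast markers, the fibroblast sum being mostly collagen genes. The summed macrophage markers were high in MBZ_11, at 606 CPM, and so were the keratinocyte markers, at 17.9 CPM.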

How the results depend on the processing

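Of 321 values of single genes under the alternatives, 291 kept their direction and side of the threshold, 4 passed it newly and 26 changed sign. DESeq2 called 216 genes and 2 members. At adjusted p under 0.1 and under 0.2, edgeR called 32 and 154 genes, with 1 member (Adam12) under 0.2. Without NC_5, MBZ_11 and MBZ_15, edgeR called 0 genes, 1 member was higher at an unadjusted p under 0.05, and every Zelnorm library lay above every NC library for 4 members (9.52%, against 16.2% of all genes) and below for 11 (26.2%, against 16.5%). There, log2 fold changes turned to -0.0015 (Adam17), -0.12 (Adam9), -0.066 (Adamts1), -0.12 (Adamts4), -0.40 (Mmp13), -0.045 (Mmp14), -0.35 (Mmp3), -0.12 (Mmp9) and -0.013 (Timp1). In limma voom Mmp3 turned to -0.027. The causes were not tested, and the fit without NC_5, MBZ_11 and MBZ_15 also held fewer libraries.

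With each library left out in turn, called genes ran from 0 (without NC_5) to 161 (without NC_10), with 21 without MBZ_15. Called members ran from 0 to 2. Members higher at an unadjusted p under 0.05 ran from 3 (without NC_5 or MBZ_15) to 12 (without NC_10), with no share of all genes given for these fits. Members wholly above ran from 2 to 11, highest without NC_10, where 26.2% of members and 11.5% of all genes were wholly above. Those wholly below ran from 2 to 4 (highest without NC_6, with 9.52% of members and 10.1% of all genes). Log2 fold changes that changed sign ran from -0.020 to 0.133 (Adam15), -0.078 to 0.127 (Adam9), -0.045 to 0.040 (Adamts1), -0.037 to 0.070 (Adamts4), -0.098 to 0.48 (Mmp13), -0.031 to 0.063 (Mmp14) and -0.31 to 0.45 (Mmp3). No paired analysis was possible because the columns of the count table do not carry the labels' replicate numbers. DESeq2 gave no adjusted p for 5 members of low count. With 4 and 3 libraries, and counts near the floor for Mmp8, Mmp10, Mmp27 and Timp4, small differences were not detectable.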
